A study of Mus musculus with 8 samples.

Results

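The 10 genes described here, Axin1, Axin2, Apc, Rnf43, Znrf3, Nkd1, Apcdd1, Lgr5, Tnfrsf19 and Sp5, encode the scaffolds of the Wnt pathway, the brakes that the pathway switches on against itself, and some of its other common targets. They were chosen by gene name, with no measured value in the rule but with earlier results of these data known. They make up 10 of the 24538 gene IDs in the RNA tables. Their chromatin was taken as the ATAC-seq regions that overlapped a gene span plus 50 kb either side, which gave 172 of 134830 regions. ATAC-seq marks open chromatin by where a transposase can insert into it.

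The study concerned the transcription factors TCF1, encoded by Tcf7, and LEF1 at the start of T-cell fate. Knockout cells came from mice with CreER and floxed Tcf7 and Lef1 alleles, and control cells from CreER+ WT mice. In both genotypes bone marrow LSK cells, a fraction rich in blood stem and progenitor cells, were cultured on OP9-DL1, stromal cells that display the Notch ligand Delta-like 1. Both genotypes received 4-OH tamoxifen, the compound that activates CreER, on days 3 to 5, and were sorted on day 7 as Lin-CD8-CD4-CD44hiCD25- ckit+ cells, the DN1 stage that precedes T-cell commitment. Each genotype had 2 RNA libraries and 2 ATAC libraries. The sources used here give neither the promoter that drives CreER nor the age of the mice. Nothing in the labels says that replicates were separate animals or cultures, so p-values measure the spread between these libraries, which may be technical.

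Without a Wnt signal, the scaffolds Axin1, Axin2 and Apc hold the kinases that mark beta-catenin for destruction. A Wnt bound to Frizzled and LRP receptors stops this, and beta-catenin then enters the nucleus and activates genes to which TCF and LEF factors are bound. Several of those genes encode brakes: Axin2 rebuilds the destruction complex, Rnf43 and Znrf3 are membrane ubiquitin ligases that remove Frizzled, Nkd1 binds Dishevelled, and Apcdd1 is a membrane protein that inhibits Wnt at the cell surface. Lgr5 is a receptor for R-spondins, secreted proteins that neutralise Rnf43 and Znrf3, while Tnfrsf19 is a receptor of the TNF receptor family and Sp5 a zinc-finger transcription factor. In T-cell precursors TCF1 is best known for a role downstream of Notch.

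Promoter windows were available from RefSeq (build GRCm38.p6, the assembly named mm10) for 5 of the 10 genes, in 7 windows that run from 250 bases before to 50 after an annotated start. The letters searched were CTTTGAT and CTTTGTT, core forms of the TCF/LEF motif, on both strands. The strings cannot both match at 1 position of a strand, so no base is counted for both there. Of 32851 windows in the whole table, 3.73% held CTTTGAT, 5.85% held CTTTGTT and 9.33% held either. Among the members, 2 of the 7 windows held a match. The Sp5 window, chr2:70474673-70474972 on the plus strand, held 2 matches; 0.551% of all windows held 2 or more. Its CTTTGTT lies on the opposite strand and begins 222 bases before the start, and its CTTTGAT lies on the given strand and begins 104 bases before it. The second Tnfrsf19 window, chr14:61037938-61038237 on the minus strand, belongs to a start inside the gene and held CTTTGAT on the opposite strand, 202 bases before that start. The Axin2 window, chr11:108920099-108920398, and the first Rnf43 window, chr11:87662837-87663136, both on the plus strand, held neither. They are shown because these are the members whose RNA was called lower in knockout libraries. Capitals mark the matches, which read in reverse complement where they lie on the opposite strand. A match is a description of letters, not evidence of binding, and the lack of one concerns these windows only.
Sp5: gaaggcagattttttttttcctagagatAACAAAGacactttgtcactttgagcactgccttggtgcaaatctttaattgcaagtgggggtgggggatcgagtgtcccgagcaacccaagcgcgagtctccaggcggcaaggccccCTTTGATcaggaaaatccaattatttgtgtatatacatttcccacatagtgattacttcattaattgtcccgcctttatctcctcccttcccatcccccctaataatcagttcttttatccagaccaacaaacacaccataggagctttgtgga
Tnfrsf19, second window: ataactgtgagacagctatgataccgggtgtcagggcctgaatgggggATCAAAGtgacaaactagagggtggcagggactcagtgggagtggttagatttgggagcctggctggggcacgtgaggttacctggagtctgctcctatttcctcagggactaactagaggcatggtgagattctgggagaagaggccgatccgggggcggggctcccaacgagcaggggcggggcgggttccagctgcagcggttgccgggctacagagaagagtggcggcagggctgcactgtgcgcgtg
Axin2: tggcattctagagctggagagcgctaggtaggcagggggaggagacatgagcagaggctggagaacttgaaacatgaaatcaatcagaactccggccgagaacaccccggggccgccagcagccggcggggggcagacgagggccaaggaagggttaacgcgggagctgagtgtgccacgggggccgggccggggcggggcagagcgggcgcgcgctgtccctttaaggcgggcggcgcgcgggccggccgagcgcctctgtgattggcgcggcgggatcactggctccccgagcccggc
Rnf43, first window: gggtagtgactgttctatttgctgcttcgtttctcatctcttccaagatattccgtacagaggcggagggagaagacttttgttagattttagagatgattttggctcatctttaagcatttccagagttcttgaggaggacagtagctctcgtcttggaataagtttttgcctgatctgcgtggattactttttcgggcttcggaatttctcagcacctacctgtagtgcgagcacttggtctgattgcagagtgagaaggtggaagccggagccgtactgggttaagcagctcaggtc

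Tcf7 checked the labels. It stood at 13.2 and 12.4 TPM in knockout libraries, against 518 and 510 TPM in control libraries (limma log2 change -5.22, adjusted p = 8.64e-06). Lef1 stood at 1.46 and 1.57 TPM in knockout libraries and at 1.66 and 1.10 TPM in control libraries, too low in both to check its deletion. TPM, a transcript's share of all transcripts, sums to 1000000 in each library. Kit and Cd44, genes of the sort, and Ptprc and Notch1, which the stated sort does not name, were present in all 4 RNA libraries. Kit, Ptprc and Notch1 were lower in knockout libraries (limma adjusted p = 0.000668, 0.00203 and 0.000281), and Cd44 was not called. Kit averaged 157 TPM in knockout and 244 TPM in control libraries, Ptprc 135 and 219 TPM, and Notch1 78.2 and 160 TPM. The 10 T-lineage markers summed to 52.5 and 53.0 TPM in knockout libraries, against 513 and 515 TPM in control libraries. All 9 tested genes of that list fell. They include Il2ra, which encodes the CD25 used as a negative gate and stood at 0.658 and 0.393 TPM in knockout libraries, against 136 and 133 TPM in control libraries. The 20 markers of the OP9 stroma summed to 2718 and 2245 TPM in knockout libraries, against 1230 and 1253 TPM in control libraries, with 13 of 18 tested genes higher and 0 lower. Among its defining genes Col1a1 averaged 138 ± 19.5 TPM in knockout and 62.4 ± 1.56 TPM in control libraries (SD, n = 2 each), Dcn was listed at 0 in every library, and Lum was listed at 0 in all but 1 knockout library. These were bulk samples, in which fewer cells of a type and less RNA per cell cannot be told apart.

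Levels were fitted as log2(TPM + 1) in limma for the 13228 genes that averaged at least 1 TPM, and a gene was called at a Benjamini-Hochberg adjusted p under 0.05. Of the 10 members 6 passed the filter and 4, Nkd1, Tnfrsf19, Lgr5 and Sp5, did not. Axin2 and Rnf43 were called lower in knockout libraries, and 0 members were called higher, with 1 (Znrf3) higher at an unadjusted p under 0.05. Across all tested genes 39.8% were called, 14.7% lower and 25.2% higher. With 6 genes, 2 calls lie near the share called in either direction, and both were lower. Lower genes were 36.8% of all calls here and 50.6% under median-ratio scaling. The median log2 change of the 6 was -0.29, against 0.09 over all tested genes. On this scale the change of low genes is understated, so the ratio of mean TPM is given beside it.

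The scaffolds came apart by level. Axin1 (chr17:26138686-26195811, plus strand) was the most abundant member, at 49.0 and 43.7 TPM in knockout libraries and 52.6 and 50.3 TPM in control libraries. The knockout libraries lay below the control libraries, but by only 1.11-fold in the means, and the difference did not pass the test (log2 change -0.15, SE 0.0788, adjusted p = 0.188). Scaling by median ratios, which centres the typical gene, gave Axin1 a log2 change of -0.25 and an adjusted p of 0.0484. Apc (chr18:34220984-34322190, plus strand) stood at 32.8 and 31.5 TPM in knockout libraries and at 32.3 and 32.5 TPM in control libraries. Its groups overlapped and its log2 change was -0.01 (SE 0.0719, adjusted p = 0.924).

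Axin2 (chr11:108920349-108950781, plus strand), the scaffold whose RNA is the usual readout of canonical Wnt activity, fell. It stood at 1.06 and 1.30 TPM in knockout libraries, against 3.24 and 2.44 TPM in control libraries. The groups did not overlap, and the knockout mean of 1.18 ± 0.171 TPM lay 2.41-fold below the control mean of 2.84 ± 0.565 TPM (SD, n = 2 each). The log2 change was -0.81 (SE 0.243, limma adjusted p = 0.0466), just inside the threshold. The call was lost on leaving out any single library: the adjusted p was 0.145 and 0.0961 without knockout replicate 1 and 2, and 0.165 and 0.0792 without control replicate 1 and 2. Over all 12 alternatives in which it was tested, Axin2 was called in 4, with a log2 change between -1.19 and -0.60. As a description chosen after the values were seen, the Axin2 to Axin1 ratio in TPM was 0.0216 and 0.0298 in knockout libraries, against 0.0617 and 0.0485 in control libraries.

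Of the ubiquitin ligases, Rnf43 fell and Znrf3 was not called. Rnf43 (chr11:87663087-87735539, plus strand) stood at 1.06 and 1.30 TPM in knockout libraries, against 2.66 and 4.00 TPM in control libraries. The groups did not overlap, and the knockout mean of 1.18 ± 0.170 TPM lay 2.82-fold below the control mean of 3.33 ± 0.953 TPM (SD, n = 2 each). Rnf43 had the largest fall among the tested members (log2 change -0.97, SE 0.259, limma adjusted p = 0.033). Its call was lost on leaving out any single library, with an adjusted p of 0.116 and 0.0799 without knockout replicate 1 and 2, and of 0.0518 and 0.131 without control replicate 1 and 2. It was called in 7 of 12 alternatives. Znrf3 (chr11:5276329-5444847, minus strand), which has the same biochemical activity, stood at 7.51 and 6.59 TPM in knockout libraries, against 4.16 and 5.18 TPM in control libraries. Its knockout values lay above both control values, by 1.51-fold in the means, but the difference did not pass the test (log2 change 0.51, SE 0.176, limma adjusted p = 0.0682), nor did it in any of 13 alternatives (0.0578 to 0.235). The Rnf43 to Znrf3 ratio, a description chosen after the values were seen, was 0.141 and 0.198 in knockout libraries, against 0.639 and 0.773 in control libraries. The T-lineage markers fell beside Axin2 and Rnf43 and the stromal markers were higher beside Znrf3, at the levels given above. The 9 mast cell and basophil markers summed to 475 and 482 TPM in knockout libraries, against 241 and 239 TPM in control libraries, with 8 higher, 1 lower and a median log2 change of 2.58. The part of these 3 marker lists in the members' values was not tested.

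**Figure D1:**
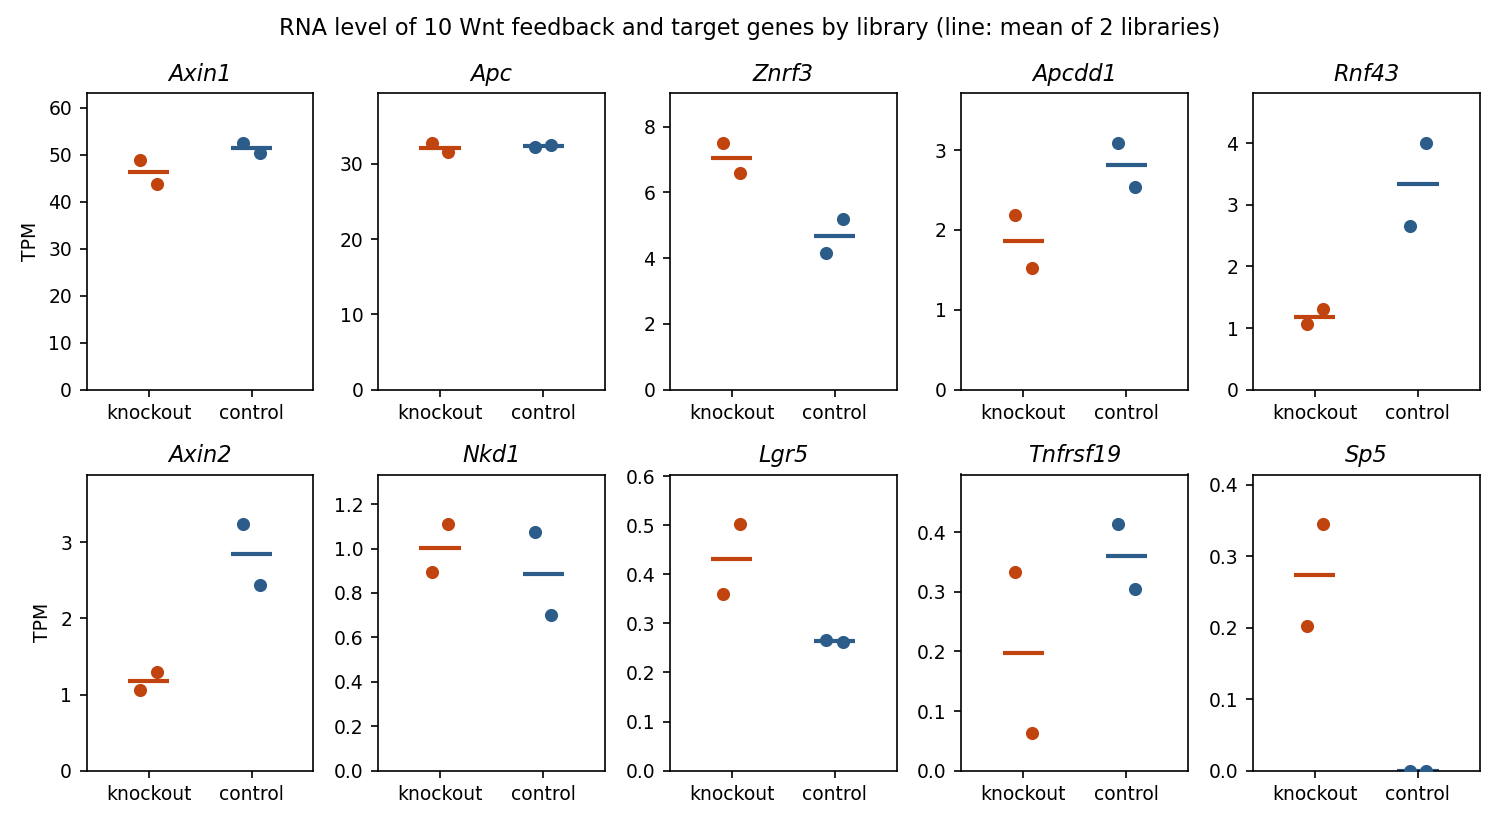
RNA level of each member in TPM (vertical axis, a separate scale from 0 in each panel) in the 2 knockout libraries (left of each panel) and the 2 control libraries (right). Points are libraries and lines are means of 2. Axin2 and Rnf43 sit near 1 TPM in both knockout libraries and between 2.44 and 4.00 TPM in the control libraries, Znrf3 is higher in both knockout libraries, and Apc overlaps.

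The inhibitors Apcdd1 and Nkd1 were low. Apcdd1 (chr18:62922327-62953195, plus strand) stood at 2.19 and 1.53 TPM in knockout libraries, against 3.09 and 2.54 TPM in control libraries. Its knockout values lay below both control values, by 1.51-fold in the means, without passing the test (log2 change -0.42, SE 0.239, limma adjusted p = 0.213). Nkd1 (chr8:88521344-88594887, plus strand) was listed at 0.893 and 1.11 TPM in knockout libraries and at 1.07 and 0.699 TPM in control libraries, so the groups overlapped. Little coverage lay behind these values: the deposited coverage was 0.0945 and 0.118 reads per base in knockout libraries and 0.106 and 0.0609 in control libraries. In each library the ratio of coverage to FPKM for Nkd1 was 0.0848 of the library's median, whereas that of Axin2, Rnf43, Apc and Apcdd1 was at the median.

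Counting the tested members by position alone, 4 had both knockout values below both control values (Axin1, Axin2, Rnf43 and Apcdd1), 1 had them above (Znrf3), and Apc overlapped. Over all tested genes these shares were 29.0% below and 44.4% above. With 6 genes this is a count, not a test.

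**Figure D2:**
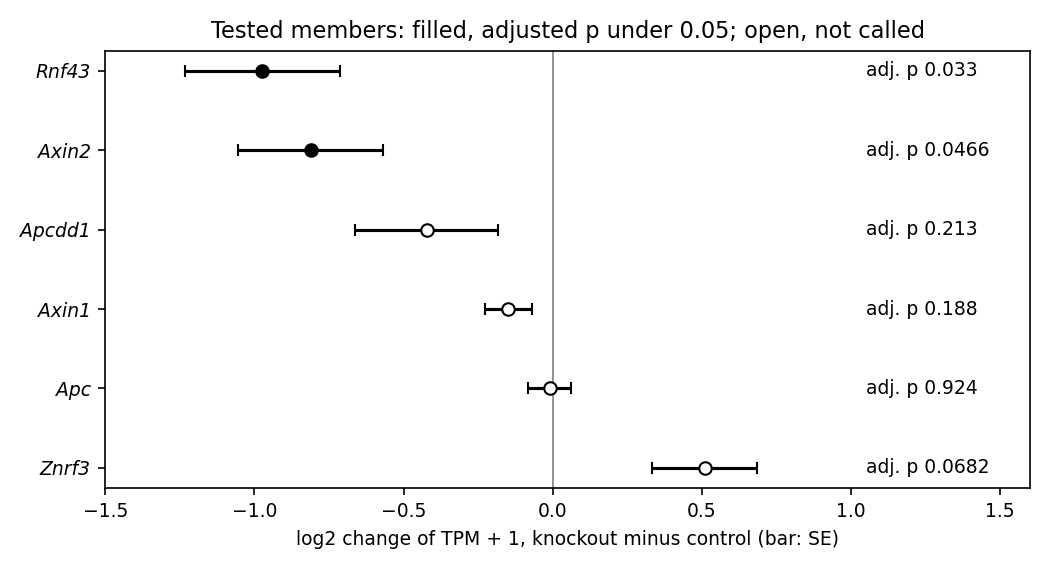
Log2 change of TPM + 1, knockout minus control (horizontal axis), of the 6 members tested. Points are limma estimates, bars are standard errors, and filled points have an adjusted p under 0.05. Rnf43 and Axin2 lie to the left at -0.97 and -0.81, Apc lies at 0 within its error, and Znrf3 lies to the right at 0.51.

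The remaining targets were close to the floor. Tnfrsf19 (chr14:60963834-61046855, minus strand) stood at 0.332 and 0.0625 TPM in knockout libraries and 0.414 and 0.305 TPM in control libraries. Its groups overlapped, and the lowest value came from knockout replicate 2. Lgr5 (chr10:115450314-115587780, minus strand), a marker of intestinal stem cells, stood at 0.359 and 0.503 TPM in knockout libraries, against 0.266 and 0.263 TPM in control libraries. Sp5 (chr2:70474923-70477726, plus strand) stood at 0.203 and 0.345 TPM in knockout libraries and was listed at 0 in both control libraries, so no fold is given. Lgr5 and Sp5 were the 2 untested members whose knockout values lay above both control values, as did 9.8% of genes with a mean under 1 TPM; 20.0% of such genes lay below, and 0 untested members did. With the filter removed, so that 21810 genes were tested, the limma adjusted p was 0.151 for Sp5, 0.505 for Lgr5, 0.528 for Tnfrsf19 and 0.806 for Nkd1.

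In knockout libraries the order of levels in TPM was Axin1, Apc, Znrf3, Apcdd1, Rnf43, Axin2, Nkd1, Lgr5, Sp5 and Tnfrsf19. There the ranges of Rnf43 and Axin2, of Axin2 and Nkd1, and of Sp5 and Tnfrsf19 overlapped, and the other neighbours were apart. In control libraries the order was Axin1, Apc, Znrf3, Rnf43, Axin2, Apcdd1, Nkd1, Tnfrsf19, Lgr5 and Sp5, with overlap between Rnf43 and Axin2 and between Axin2 and Apcdd1. Rnf43 and Axin2 thus stood below Apcdd1 in knockout libraries, while in control libraries Rnf43, Axin2 and Apcdd1 were close together. Axin1 and Apc, the constitutive scaffolds, kept the first places in both genotypes.

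The rest of the pathway was read from 6 lists written from general knowledge, with earlier results of these data known, and without Tcf7 and Lef1. Of 91 listed genes in the files 49 passed the filter, and of these 13 were higher, 5 lower and 31 not called, with a median log2 change of 0.13. That is 26.5% higher and 10.2% lower, near the 25.2% and 14.7% of all tested genes. Ligands were almost silent: of 19 Wnt genes 16 stayed under 1 TPM in every library, and the 2 that were tested, Wnt2b and Wnt16, were not called. Leaving out knockout replicate 1 reduced the higher genes to 8, and leaving out knockout replicate 2 or control replicate 1 reduced the lower genes to 3.

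Called genes of the lists for secretion, R-spondins and inhibitors were all higher, but few of the listed genes were tested. Of 4 tested genes for Wnt secretion and R-spondins 3 were higher (median log2 change 1.13): Rspo2 at 13.7 and 9.16 TPM in knockout libraries, against 3.18 and 2.51 TPM in control libraries (limma adjusted p = 0.00424), Rspo3 (log2 change 1.30) and Wls, the carrier that brings Wnts to the surface (0.34). Porcn was not called. Of 14 genes on the secreted inhibitor list, which also holds the receptor genes Kremen1 and Kremen2, 9 stayed under 1 TPM in every library. Of the 4 tested 3 were higher (median 1.44) and Kremen1 (-0.35) was not called. Sfrp2, which binds Wnts, stood at 28.4 and 18.4 TPM in knockout libraries, against 7.10 and 6.53 TPM in control libraries (limma adjusted p = 0.00358). Sfrp1 and Dkk3 had log2 changes of 1.40 and 1.48. Of 12 tested receptors 3 were higher (median 0.44), Fzd8 at 1.08, Fzd2 at 0.98 and Ryk at 0.92 on the log2 scale, and 9 were not called, among them the co-receptors Lrp5 and Lrp6. The receptors' 25.0% higher is near the 25.2% of all tested genes. The summed stromal markers were higher in the same libraries, and their part in these changes was not tested. The calls of Rspo3, Wls, Fzd8, Fzd2 and Ryk were lost without knockout replicate 1 (adjusted p = 0.0675, 0.0963, 0.163, 0.0876 and 0.133), and those of Wls, Fzd8, Fzd2 and Ryk also without control replicate 2 (0.0912, 0.118, 0.0726 and 0.128). Without knockout replicate 2 the calls of Wls (0.053) and Fzd8 (0.101) were lost, and without control replicate 1 those of Fzd2 (0.0653) and Ryk (0.0702). Other settings also ended calls: median-ratio scaling and a fit with no intensity trend those of Wls (0.0539 and 0.0586) and Fzd8 (0.0529 and 0.0657), a pseudocount of 0.1 that of Fzd8 (0.0529), and no filter those of Fzd8 (0.0854) and Ryk (0.0689).

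Inside the cell most differences were small. Of 17 tested genes of the destruction complex and cytoplasmic relay 13 were not called (median log2 change -0.10). The list had 5.9% higher and 17.6% lower, against 25.2% and 14.7% of all tested genes. Ctnnbip1, chosen after its values were seen, had the largest change on the list and missed a call narrowly. Knockout replicates gave 8.96 and 9.28 TPM and control replicates 5.21 and 6.77 TPM. Its log2 change was 0.54 (SE 0.167), with a limma adjusted p of 0.0501. The casein kinases Csnk1a1, Csnk1d and Csnk1e, which prime beta-catenin for destruction or act on Dishevelled, had log2 changes of -0.23, -0.19 and -0.24, and Ctnnb1, beta-catenin itself, one of 0.23. Leaving out any single library ended the calls of Csnk1d (adjusted p 0.0914 to 0.143) and Csnk1e (0.0566 to 0.0748), and that of Ctnnb1 was lost without knockout replicate 1 (0.0508), without control replicate 1 (0.0597), under quantile normalization (0.193) and under median-ratio scaling (0.0737). A fit with no intensity trend ended all 4 calls, with an adjusted p of 0.0744 for Csnk1a1, 0.111 for Csnk1d, 0.0731 for Csnk1e and 0.0784 for Ctnnb1; that of Csnk1d was also lost without the filter (0.0556) and with the replicate block (0.0725). Among other common Wnt targets the directions were mixed. Fosl1, an AP-1 subunit, fell by 2.01 and Ephb2, an ephrin receptor, by 1.22 on the log2 scale. Its relative Ephb3 rose by 1.33, the cell-cycle gene Ccnd1 by 1.23 and the transcription factor Sox9 by 0.82, while Myc and Cd44 were not called. Ccnd1 stood at 42.0 and 45.6 TPM in knockout libraries, against 19.0 and 17.1 TPM in control libraries.

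**Figure D3:**
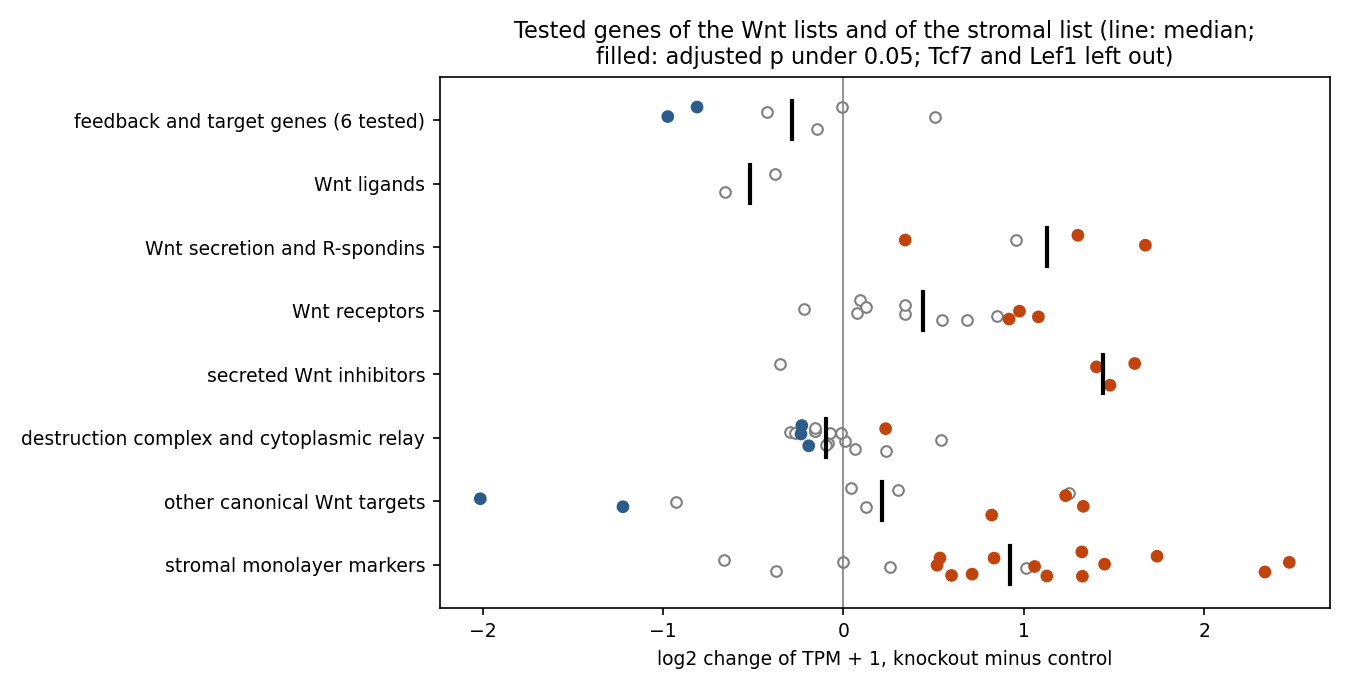
Log2 change of TPM + 1, knockout minus control (horizontal axis), of the tested genes of each list (rows). Points are genes, filled where the adjusted p is under 0.05, and vertical lines are medians. The 6 tested feedback and target genes have a median of -0.29, while the R-spondin, secreted inhibitor and stromal lists have medians of 1.13, 1.44 and 0.92.

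In ATAC data, peaks of the 4 lists that overlapped by at least 1 base were merged into regions, and each region was classed by the libraries with a peak in it. The lists held 109380 and 111007 peaks in knockout and 103009 and 105227 in control outside the mitochondrial chromosome. Heights below are the authors' fold enrichment over local background and their -log10 q. Lists carry no read counts, so depth is unknown and regions were not tested.

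Near the 10 genes 5 regions (2.91%) were open in both knockout libraries and neither control library, against 6.63% of all regions. Another 14 (8.14%) were open in both control libraries and neither knockout library, against 4.79% of all regions. A further 109 (63.4%) were open in all 4 libraries and 44 (25.6%) in some other combination, against 59.1% and 29.5% of all regions. The control-only regions were not spread evenly: Nkd1 had 5 of its 27 and Tnfrsf19 3 of its 12. The other 8 members together had 6 of 133 (4.51%), near the background. Among them Rnf43 had 3 of its 36 (8.33%), as many as Tnfrsf19, and Apcdd1 had 1 of its 5. Nkd1 and Tnfrsf19 were set apart after the counts were seen, which lowers the share of the rest. Knockout-only regions lay near Rnf43 (3), Apc (1) and Lgr5 (1). Windows differ in length between genes and can reach into neighbours: the member had the nearest gene start for 72 of the 172 regions, for 9 of the 14 control-only regions and for 1 of the 5 knockout-only regions.

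**Figure D4:**
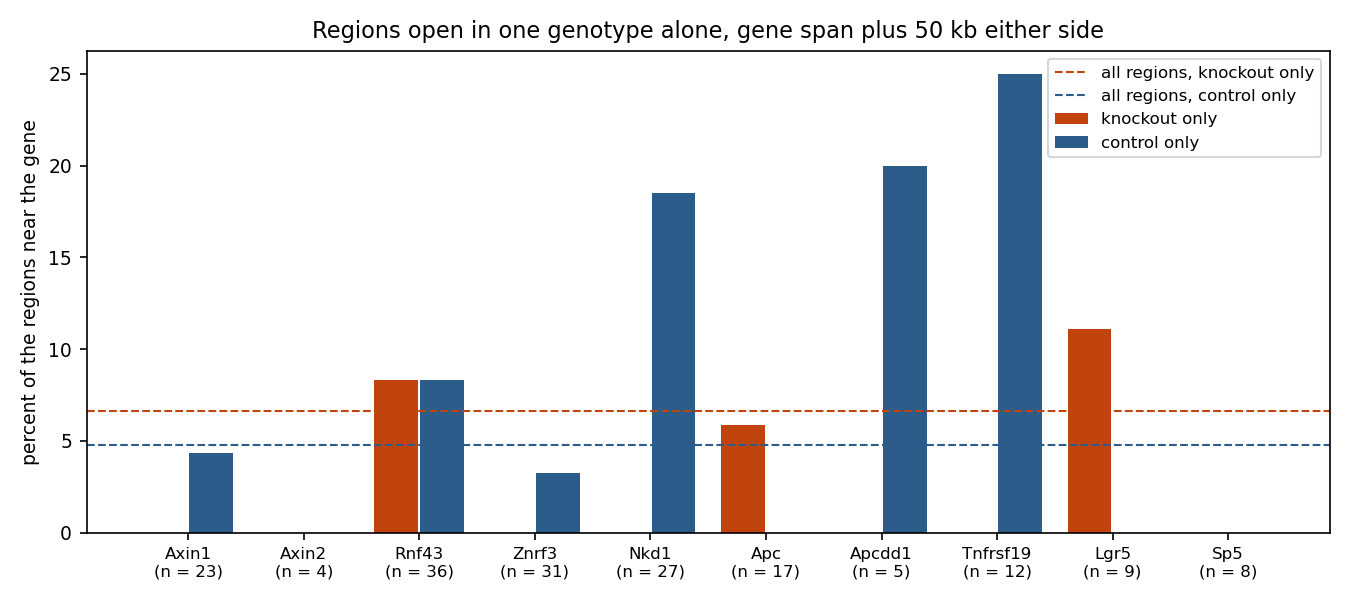
Percent of the regions near each member (vertical axis; n is its number of regions) that were open in both knockout libraries alone or in both control libraries alone. Dashed lines give the same over all regions, 6.63% and 4.79%. Tnfrsf19 and Nkd1 have the tallest control-only bars among members with more than 5 regions, at 25.0% and 18.5%, with no knockout-only region.

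Gene starts had open regions at or near them in both genotypes, though the starts of Rnf43, Sp5, Tnfrsf19 and Lgr5 lay outside these regions. Every member had a region open in all 4 libraries within 1 kb of its start, including the 4 with a mean under 1 TPM; 87.6% of genes at 1 TPM or more and 24.3% of genes under 1 TPM had such a region. At the Axin2 start (chr11:108920125-108920908), which covers 274 of the 300 bases of the window shown above, the fold was 16.5 and 14.9 in knockout libraries and 12.1 and 13.2 in control libraries. The region nearest to the Rnf43 start (chr11:87662327-87662732) ends 355 bases upstream of it and had a fold of 18.5 and 21.6 in knockout libraries and 19.1 and 19.4 in control libraries. Axin2 and Rnf43 RNA was thus called lower while neither start region was lower in both knockout lists. The start regions of Axin1, Apc and Znrf3 had folds of 17.5 and 16.6, 10.8 and 11.7, and 14.4 and 14.7 in knockout libraries, against 17.2 and 17.6, 11.1 and 12.2, and 14.1 and 12.8 in control libraries. Of these the Znrf3 values were higher in both knockout lists, while the Axin1 and Apc values overlapped. The start region of Apcdd1 and the region nearest to the Lgr5 start also overlapped between genotypes, and a further Lgr5 region 1.11 kb inside the gene had a fold of 6.19 and 6.42 in knockout libraries, against 7.51 and 7.37 in control libraries. At Sp5 a region upstream (chr2:70474303-70474637) had a fold of 5.40 and 5.46 in knockout libraries and 6.09 and 5.00 in control libraries, and the window shown above lies between it and a region open in 3 of the 4 libraries, outside both.

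By the lower of the control -log10 q values, the strongest region open in control libraries alone lay in Tnfrsf19. This region, 61.6 kb inside the gene (chr14:60985118-60985418), had a fold of 14.5 and 13.8 and a -log10 q of 50.1 and 44.2 in control libraries, with no peak in either knockout library. Another (chr14:61012408-61012649), 34.3 kb inside, had a fold of 8.05 and 8.04, and the last (chr14:61057074-61057306), 10.3 kb upstream, had 4.40 and 3.93. A pair of shared regions, chosen after their values were seen, were also lower in knockout lists. The region nearest to the start (chr14:61046328-61046764) lies 91 bases inside the gene. Its fold was 15.5 and 15.5 in knockout libraries, against 20.8 and 21.6 in control libraries. The other, 9.87 kb upstream (chr14:61056555-61056891), had 7.97 and 9.86, against 19.0 and 18.5. The inner start whose window carries CTTTGAT lies in a region (chr14:61037585-61038211) with a fold of 11.8 and 11.0 in knockout libraries, against 10.8 and 9.06 in control libraries. Tnfrsf19 RNA was under 0.5 TPM in every library beside these regions.

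Nkd1 had the most control-only regions. The strongest (chr8:88588965-88589392), 67.8 kb inside the gene, had a fold of 10.7 and 13.4 and a -log10 q of 37.1 and 51.9 in control libraries and no peak in knockout libraries. Its nearest gene start was that of Snx20, as it was for the region past the gene end given below. The region 0.797 kb upstream of the start (chr8:88520426-88520668) had a fold of 4.61 and 4.15, beside a start region open in all libraries with a fold of 10.5 and 10.3 in knockout libraries, against 9.10 and 8.37 in control libraries. One more lay 44.9 kb inside (chr8:88566181-88566348; fold 4.86 and 5.90) and another just past the gene end (chr8:88599474-88599758; fold 7.23 and 6.65), while the fifth was the weakest, with a lower -log10 q of 4.78. Of 24274 genes 0.466% had at least as many control-only regions in their windows as Nkd1, and 3.89% at least as many as Tnfrsf19. These shares were not adjusted for window length or number of regions. Nkd1 and Tnfrsf19 were set apart after their counts were seen, so the shares are not a test. Nkd1 RNA overlapped between genotypes.

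**Figure D5:**
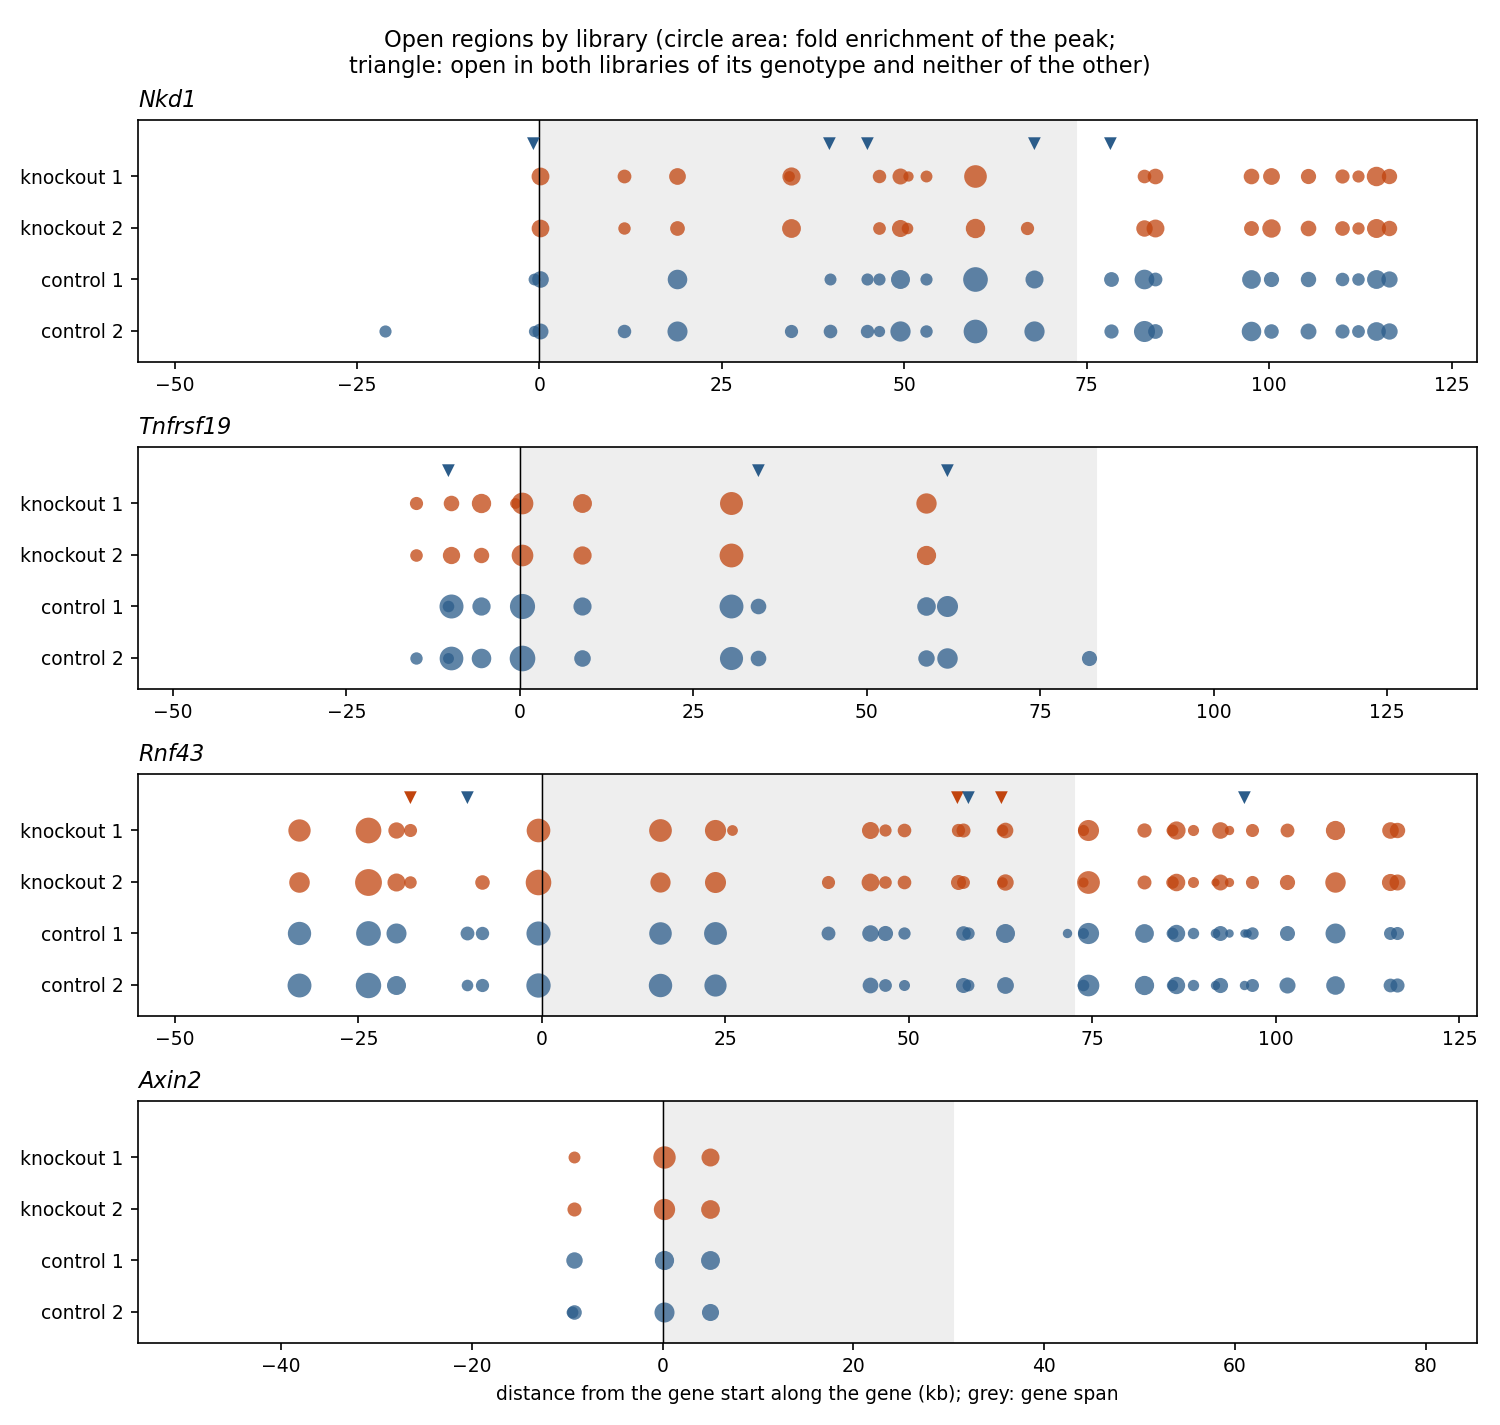
Open regions near Nkd1, Tnfrsf19, Rnf43 and Axin2 by library (rows, knockout above control) against distance from the gene start along the gene in kb (horizontal axis; grey is the gene span). Circle area follows the authors' fold enrichment, and triangles mark regions open in both libraries of one genotype and neither of the other. Nkd1 has 5 and Tnfrsf19 3 control-only triangles, Rnf43 has 3 of each kind, and Axin2 has none.

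Rnf43 had exchanges in both directions and all were weak. Its knockout-only regions lay 17.9 kb upstream (chr11:87645095-87645285), with a fold of 5.66 and 5.13 in knockout libraries, and 56.6 kb inside the gene (chr11:87719635-87719823), with 5.78 and 7.43; the last, 62.6 kb inside, had 4.39 and 3.68. Its control-only regions lay 58.1 kb inside (chr11:87721030-87721276; fold 5.02 and 4.63), 10.2 kb upstream (fold 6.33 and 4.43) and past the gene end, nearest to the start of Bzrap1 (chr11:87758636-87758886; fold 2.36 and 2.92). A knockout-only and a control-only region thus lay within 2 kb of each other inside the gene. Of all genes 6.81% had at least 3 knockout-only regions nearby, and 3.89% had at least 3 control-only regions.

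Axin2 had 4 regions in its window and none open in 1 genotype alone. Besides the start, a region 5.01 kb inside (chr11:108925177-108925548) had a fold of 10.7 and 11.5 in knockout libraries and 11.8 and 9.62 in control libraries, and one 9.25 kb upstream (chr11:108910943-108911252) had 4.69 and 6.53, against 8.90 and 7.02. Of these 3 shared regions the upstream one was lower in both knockout lists and the start region higher in both.

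Other members had at most 1 region of either kind. Znrf3 had a control-only region 42.4 kb inside (chr11:5402333-5402571; fold 5.43 and 7.09), and a shared one 33.0 kb inside (chr11:5411638-5412027), chosen after its values were seen, had a fold of 5.28 and 6.10 in knockout libraries, against 14.1 and 16.5 in control libraries, while Znrf3 RNA was not lower. Apcdd1 had a control-only region 0.799 kb inside (chr18:62923025-62923227; fold 3.46 and 4.09). Axin1's was 99.1 kb away and nearest to the start of Fam234a. The knockout-only regions of Apc (chr18:34253843-34254051; fold 4.77 and 5.99) and Lgr5 (chr10:115465843-115466048; fold 7.92 and 5.67) lay 33.0 and 122 kb inside those genes. Sp5 had neither kind.

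Over the 109 shared regions near members, 39 (35.8%) had a higher fold in both knockout lists than in both control lists and 29 (26.6%) a lower one, against 28.9% and 24.9% of all shared regions. Apc had 6 of its 10 shared regions higher and 0 lower, and Tnfrsf19 had 2 of 6 in each direction. These folds were not scaled between lists, although the median ratio of knockout to control over all shared regions was 1.01.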

How the data were processed

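Sorted DN1 cells gave 2 knockout and 2 control libraries for each of RNA-seq and ATAC-seq, grouped by the sample titles. Per the submitters' processing notes, HISAT2 aligned the RNA reads and StringTie quantified them, and Bowtie2 and MACS2 produced the ATAC peaks, all on mm10 and with no version stated. Information on strand, duplicate removal, read shifting and peak thresholds was not given in the sources used here.

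The deposited TPM columns sum to 1000000 per library. The deposited FPKM, also the authors' value, served as an alternative. The deposited coverage, in reads per base, was used for its ratio to FPKM, whose median follows depth and was 2.64 and 2.63 in knockout and 2.41 and 2.12 in control libraries. No read counts entered the work, so counting error per gene is unknown. IDs with several entries had their TPM summed. The deposited peak lists, 1 per library, give each peak's fold enrichment, the authors' ratio to local background, and its −log10 q (at least 2.74 to 2.87); the authors' −log10 p was not used.

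Log2(TPM + 1) was fitted with limma 3.58.1 in R 4.3.3 (eBayes with an intensity trend, genotype the only term) for 13228 genes averaging 1 TPM or more, with Benjamini-Hochberg adjustment over all of them. The code was tested on simulated data. Peaks were merged in Python 3.11.15, and gene spans were those of the RNA tables. Alternatives changed the pseudocount, filter, unit, scaling, spread model, replicate block, peak threshold, overlap, window and each library in turn. Named genes were all members, Tcf7 and Lef1, and up to 6 called genes per Wnt list by size of change. Named regions were those at or nearest to each start and up to 4 per member open in 1 genotype alone, ranked by the lower −log10 q. Any others complete a count or are said to be chosen after their values were seen. The members and lists were chosen with earlier results of these data known. Of 20 other targets listed 19 were in the files, with Ccn4 under its older symbol Wisp1.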

Additional observations from a re-analysis of the deposited data

How the results depend on the processing

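Both calls among the members rest on all 4 RNA libraries. Of members called lower, 2 as reported, 0 were left on leaving out any single library, 0 without the filter and 0 at a mean TPM of at least 5, where neither gene is tested, and 1 (Rnf43) at a pseudocount of 0.1, under quantile normalization and with the replicate block. The block gave an adjusted p of 0.0778 for Axin2 and 0.0413 for Rnf43, and 1798 lower and 3072 higher genes overall. Replicate 1 minus replicate 2 differences correlated at 0.0043 between genotypes over 13228 genes. Libraries with the same number thus showed no shared deviation, which cannot settle whether they were prepared together. Leaving out 1 library gave 1088 to 1450 lower and 2005 to 2242 higher genes, against 1940 and 3331. Lower genes were 36.8% of all calls, 46.8% under quantile normalization and 50.6% under median-ratio scaling. Other Wnt list genes called lower, 5 as reported, numbered 8 under quantile normalization, 9 under median-ratio scaling, 3 without the intensity trend and 3 to 4 without 1 library; those called higher, 13 as reported, numbered 8 at a mean TPM of at least 5 and 8 to 11 without 1 library. Leaving out 1 library moved the log2 change of Apc between -0.037 and 0.0173 and that of Lef1 between -0.081 and 0.260, reversed without knockout replicate 2 and without control replicate 2 in turn, and never called. Knockout-only regions numbered 9 to 14 without 1 library, where fewer lists must agree, against 5, and control-only regions 16 to 19, against 14. Within 10 kb of the genes, 63 regions were open in all libraries. The cause of the other differences was not tested. RNA under 1 TPM and the lack of read counts limit Nkd1, Tnfrsf19, Lgr5 and Sp5.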

Other observations

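Axin2 and Rnf43 were listed at nearly the same TPM in each knockout library, 1.06 and 1.06 in knockout replicate 1 and 1.30 and 1.30 in knockout replicate 2, and at different TPM in the control libraries, 3.24 and 2.66 in replicate 1 and 2.44 and 4.00 in replicate 2. The pair was noticed after the values were seen, and both genes have the usual ratio of coverage to FPKM.

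Porcn, which attaches the lipid that Wnts need for secretion, stood at 1.23 and 2.12 TPM in knockout libraries, against 0.699 and 0.0818 TPM in control libraries (log2 change 0.96, limma adjusted p = 0.088). Kremen1, a receptor for Dkk inhibitors, stood at 9.79 and 9.37 TPM in knockout libraries, against 12.1 and 12.8 TPM in control libraries (log2 change -0.35, limma adjusted p = 0.0623). Dvl2, a Dishevelled, stood at 20.3 and 18.8 TPM in knockout libraries, against 25.0 and 23.4 TPM in control libraries (log2 change -0.30, limma adjusted p = 0.0536). Bmp4 stood at 5.73 and 2.88 TPM in knockout libraries, against 1.76 and 0.667 TPM in control libraries (log2 change 1.25, limma adjusted p = 0.051). None of these 4 genes was called, and they were picked after their values were seen.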
